A study of Mus musculus with 9 samples.

Results

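The genes described here are 40 genes of the cell cycle and mitosis, chosen by name: the regulators, replication factors, mitotic kinases and spindle proteins that a dividing cell makes in quantity. A single-gene row was found for 39 of them among the 19938 genes measured, and where a gene had several rows the one with the highest mean intensity was used. Ccnb1, a mitotic cyclin, had no such row and is not analysed here. RNA came from mammary gland cells of wild-type C3H female mice aged 8 to 9 weeks, labelled as epithelial, and was hybridised to 9 Affymetrix whole-transcript arrays. Every preparation was freed from fat by collagenase. Untrypsinized cells had only that step, trypsinized cells were also digested with trypsin, and mock sorted cells went through trypsin and then a mock pass of a fluorescence-activated cell sorter (FACS), with 3 arrays labelled as biological replicates in each group. The labels do not say whether animals were pooled or shared between groups, and the p-values therefore rest on array-to-array spread alone, part of which may be technical. Epithelial markers were present: Epcam, Krt8 and Krt18 of luminal cells and Krt5, Krt14 and Krt17 of basal cells had group means of 12.75 to 13.93 on the log2 scale, and 13 of 13 luminal and 10 of 10 basal markers lay above the level defined next. Markers of other cells were present as well. Above that level were 10 of 10 endothelial, 8 of 8 fibroblast, 9 of 10 macrophage and 10 of 12 lymphocyte markers, and Dcn, a fibroblast marker, had group means of 13.57 to 13.61.

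Levels below are log2 of the deposited intensity plus a pseudocount of 1, so small intensities give understated fold changes. All 39 genes had a mean level above 8.20, the 95th percentile of the mean levels of 1027 olfactory receptor genes, a family these cells are not known to use. Brightness differs between probes, so levels are compared between groups of arrays and never between genes. Differences are between group means, with standard errors (SE) or 95% intervals and adjusted p-values from limma, Benjamini-Hochberg adjusted over all 19938 genes. The call required both an adjusted p no higher than 0.05 and a fold of at least 1.5, which is 0.58 on the log2 scale. Because the arrays measured mixed cells in bulk, fewer dividing cells and less RNA of these genes per cell cannot be told apart.

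A cell that commits to division first switches on a set of genes under E2F factors for licensing of replication origins, fork assembly and the supply of deoxynucleotides. A later set is driven largely by the MuvB complex with B-Myb and FoxM1 through CHR promoter elements, and by NF-Y at CCAAT boxes. It supplies the kinases, kinesins and kinetochore proteins of mitosis. Many of these proteins are destroyed at the end of mitosis by the anaphase-promoting complex (APC), a ubiquitin ligase. In the adult virgin mammary gland division is sparse and follows the oestrous cycle, mostly in luminal and basal epithelium of the ducts and buds.

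None of the 39 genes was called in any comparison, and for all 39 the 95% interval of the difference lay inside a 1.5-fold change in either direction in all 3 comparisons, as did 90.9% of the intervals of all genes after trypsin, 93.7% after the sorter and 86.0% over both steps. Smaller differences were measured after trypsin. With no minimum fold, 15 of 39 genes were lower in trypsinized than in untrypsinized cells at an adjusted p no higher than 0.05, where 25.4% of all genes differed in either direction and 11.5% were lower. The 15 were cyclins and Cdk1, nucleotide enzymes, mitotic kinases and spindle genes. The 15 differences ranged from -0.32 to -0.14, which is 1.24-fold to 1.10-fold lower. The Mcm helicase subunits and Pcna were not among them, although Mcm2, Mcm3 and Mcm7 joined them when arrays were given equal medians, and Mki67 had the opposite sign. Between mock sorted and trypsinized cells 0 of 39 genes differed at that level, against 4.67% of all genes. The number of genes lower after trypsin depended on single arrays, as given below.

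**Figure D1:**
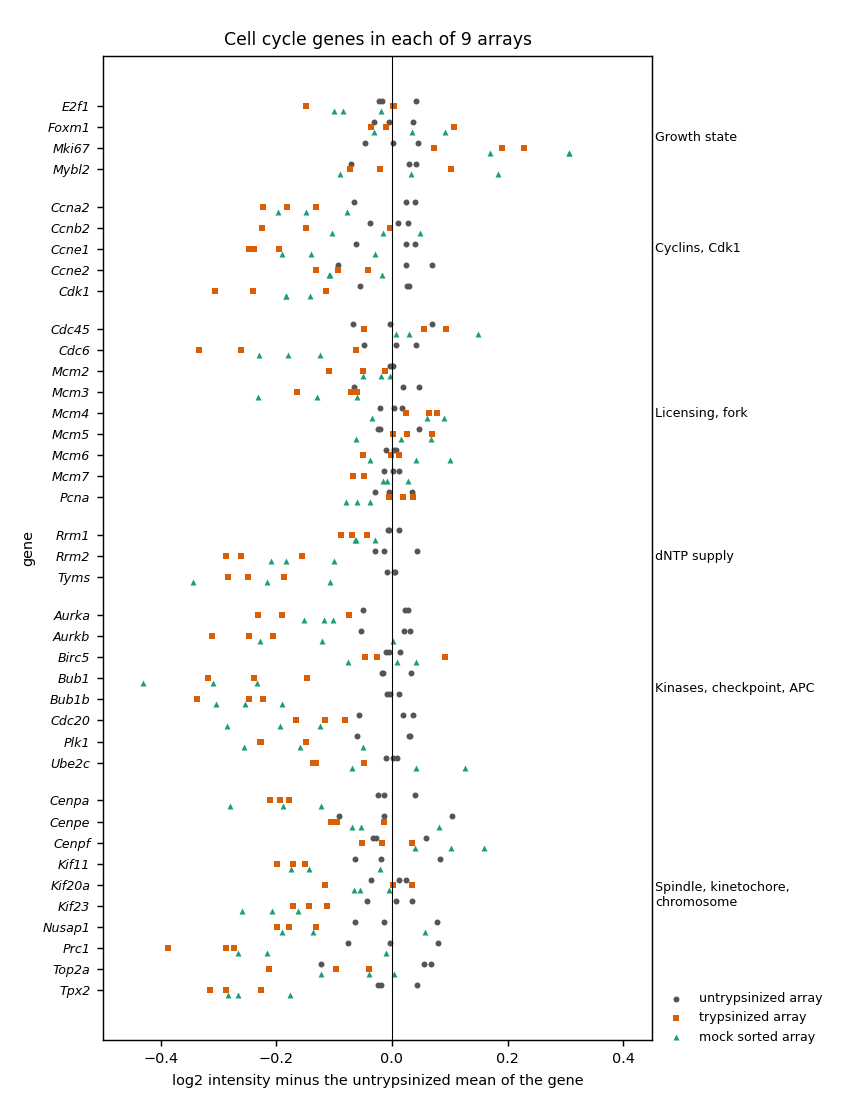
Each point is 1 array: the horizontal axis gives the log2 intensity of a gene minus its untrypsinized mean, and the rows are the 39 genes ordered by role, with APC for anaphase-promoting complex and dNTP for deoxynucleotide. Trypsinized points of the cyclin, nucleotide, kinase and spindle genes lie mostly left of the untrypsinized points, those of the licensing genes mostly overlap them, and those of Mki67 lie to the right.

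Promoters of these genes are known for the CHR, CCAAT and E2F elements named above, and 4 are printed because their genes had unlike values: Bub1b and Cdk1 were lower after trypsin, Mcm6 was not, and Mki67 had the opposite sign. These 4 were chosen after their values were seen. Sequences are from RefSeq on GRCm38.p6 and run from 250 bases before to 50 bases after the transcription start, 5′ to 3′. Bub1b is at chr2:118597961-118598260, plus strand. Cdk1 is at chr10:69352863-69353162, minus strand. Mcm6 is at chr1:128359656-128359955, minus strand. Mki67 is at chr7:135716330-135716629, minus strand. Capitals mark letters of CCAAT (the NF-Y box), TTTGAA or TTCGAA (CHR elements), and TTTCCCGC, TTTGGCGC or TTTCGCGC (E2F sites), searched on both strands, so that ATTGG is a CCAAT on the other strand and overlapping matches run together.
Bub1b: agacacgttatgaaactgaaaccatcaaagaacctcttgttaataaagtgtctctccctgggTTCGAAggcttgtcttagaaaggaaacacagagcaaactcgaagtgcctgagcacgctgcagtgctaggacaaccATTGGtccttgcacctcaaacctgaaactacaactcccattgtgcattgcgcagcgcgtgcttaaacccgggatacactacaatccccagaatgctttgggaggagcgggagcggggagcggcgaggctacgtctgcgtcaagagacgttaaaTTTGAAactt
Cdk1: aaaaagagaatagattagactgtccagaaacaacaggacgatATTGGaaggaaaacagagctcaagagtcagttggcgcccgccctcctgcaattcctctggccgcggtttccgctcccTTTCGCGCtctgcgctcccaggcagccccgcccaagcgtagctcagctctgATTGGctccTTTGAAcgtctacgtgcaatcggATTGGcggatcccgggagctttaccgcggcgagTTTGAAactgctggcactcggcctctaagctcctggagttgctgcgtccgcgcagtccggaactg
Mcm6: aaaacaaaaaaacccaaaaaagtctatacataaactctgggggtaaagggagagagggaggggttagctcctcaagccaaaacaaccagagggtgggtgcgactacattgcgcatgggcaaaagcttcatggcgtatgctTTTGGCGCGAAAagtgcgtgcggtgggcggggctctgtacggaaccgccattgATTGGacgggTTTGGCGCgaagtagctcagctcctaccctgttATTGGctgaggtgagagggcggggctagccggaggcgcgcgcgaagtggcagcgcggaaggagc
Mki67: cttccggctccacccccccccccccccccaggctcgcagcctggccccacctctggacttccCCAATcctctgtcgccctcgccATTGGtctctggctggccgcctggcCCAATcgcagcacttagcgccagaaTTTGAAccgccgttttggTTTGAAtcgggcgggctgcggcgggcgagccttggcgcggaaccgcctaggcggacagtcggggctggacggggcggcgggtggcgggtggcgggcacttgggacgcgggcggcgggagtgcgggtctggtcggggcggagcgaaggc

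Cdk1 held all 3 kinds of element, with CHR letters beginning 71 and 15 bases before the start. In Mcm6 there were 3 E2F matches, of which the pair beginning 110 and 106 bases before the start overlap, and no CHR letters. Bub1b held TTCGAA 188 bases before the start and TTTGAA beginning at base 41 after it, with 1 CCAAT box. Mki67 held CHR letters 116 and 98 bases before the start and 3 CCAAT boxes. Its difference after trypsin was 0.16 (limma adjusted p = 0.0672). Any relation between letters and levels was not tested.

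A RefSeq window was found for 33 of the 40 genes, 35 windows in all. Letters of a CCAAT box were in 28 of the 35 windows (80.0%), against 37.4% of 32851 windows in the table. CHR letters were in 19 (54.3%, against 19.2%) and E2F letters in 6 (17.1%, against 1.8%). By phase, CHR letters were in 16 of 21 windows of G2 and M phase genes and in 3 of 14 windows of S phase genes, while E2F letters were in 1 and 5. Of the genes lower after trypsin, 9 of 12 with a window held CHR letters, and of the other measured genes 9 of 20. Of the 15 lower genes 12 are G2 and M phase genes, and no test was made. A match is a run of letters, not a bound site.

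Setting trypsinized against untrypsinized cells bears on the digestion step. Across all genes 1.46% were called there, and 0 of the 39. Without the minimum fold 15 were lower and 0 higher, against 11.5% lower and 13.9% higher of all genes. The unadjusted limma p was under 0.05 for 18 lower and 1 higher, against 17.1% and 22.6% of all genes. In 22 genes every trypsinized array lay below every untrypsinized array, against 19.4% of all genes, and in 2, Mki67 and Mcm4, every one lay above, against 25.0%. The sign was negative in 31 of 39 genes and in 41.1% of all genes, and the median difference was -0.12, while the median over all genes was 0.04.

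Among the genes that mark or drive the growth state, Mki67, which encodes the Ki-67 protein of the surface of mitotic chromosomes, read 10.61, 10.66 and 10.70 in untrypsinized arrays. It was at 10.89, 10.73 and 10.85 in trypsinized arrays and at 10.96, 10.83 and 10.96 in mock sorted arrays. All 6 arrays after trypsin were above the 3 before it. The difference after trypsin was 0.16 (SE 0.06, adjusted p = 0.0672) and shrank to 0.03 with equal array medians. Foxm1 and Mybl2, transcription factors of the mitotic wave, and E2f1, an activator of the S phase wave, differed by 0.02, 0.00 and -0.05, with trypsinized and untrypsinized arrays overlapping in each. The 95% interval reached from -0.10 to 0.14 for Foxm1, from -0.17 to 0.18 for Mybl2 and from -0.16 to 0.07 for E2f1. With equal array medians E2f1 was at -0.18 (adjusted p = 0.0300) and the other two did not pass.

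Of the 5 cyclin and Cdk1 genes measured, 3 were lower and all 5 had a negative sign. Ccne1, cyclin E1, which starts S phase with Cdk2, had levels of 10.27, 10.17 and 10.26 before trypsin. Afterwards it was 9.99, 10.04 and 9.99. The groups did not overlap, and the difference was -0.23 (SE 0.05, adjusted p = 0.0145). Ccna2, cyclin A2, which acts in S and G2 phase, was 11.76, 11.66 and 11.75 in untrypsinized and 11.50, 11.54 and 11.59 in trypsinized arrays, again without overlap. Its difference was -0.18 (SE 0.05, adjusted p = 0.0289). Cdk1, a mitotic kinase, differed by -0.22 (adjusted p = 0.0200). Ccnb2, a mitotic cyclin, was at -0.13 (adjusted p = 0.176) and Ccne2, the second cyclin E, at -0.09 (adjusted p = 0.238).

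In the licensing and fork group values lay nearer to 0. Pcna, the sliding clamp of DNA polymerase, was 12.95, 12.93 and 12.99 before trypsin and 12.99, 12.98 and 12.95 after it, with the groups interleaved. Its difference was 0.02 (95% interval -0.06 to 0.09). The 6 Mcm genes, subunits of the replicative helicase, ranged from -0.10 for Mcm3 to 0.06 for Mcm4, and the 95% intervals of all 6 lay between -0.23 and 0.15. Cdc45, which activates that helicase, was at 0.03. Cdc6, the loader of the helicase, stood apart from them at 9.02, 8.99 and 8.93 before trypsin and 8.65, 8.72 and 8.92 after it. It missed the threshold by little, with a difference of -0.22 (SE 0.07, adjusted p = 0.0505). In all, 0 of these 9 genes were lower at an adjusted p of 0.05, with a median of -0.01. With equal array medians all 9 had a negative sign and Cdc6, Mcm2, Mcm3 and Mcm7 passed, from -0.35 to -0.19.

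Deoxynucleotide enzymes were lower in 2 of 3 cases. Rrm2, the subunit of ribonucleotide reductase made in S phase, was 11.54, 11.60 and 11.53 before trypsin and 11.27, 11.40 and 11.29 after it. The groups did not overlap, and the difference was -0.23 (SE 0.05, adjusted p = 0.0115). Tyms, thymidylate synthase, differed by -0.24 (adjusted p = 0.0216). Rrm1, the stable subunit of the reductase, was 11.54, 11.53 and 11.55 before and 11.45, 11.50 and 11.47 after trypsin, a difference of -0.07 (95% interval -0.14 to 0.01, adjusted p = 0.153).

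Of the 8 genes of mitotic kinases, checkpoint and ubiquitin ligase, 5 were lower and the median was -0.18. Bub1b, which encodes the checkpoint protein BubR1, was 9.58, 9.60 and 9.59 in untrypsinized arrays and 9.25, 9.34 and 9.37 in trypsinized arrays. The gap between the groups exceeded the range within either. Its difference of -0.27 (SE 0.04, adjusted p = 0.00487) was 1.20-fold. Aurkb, the kinase of the chromosomal passenger complex, was at -0.26, Bub1, a checkpoint kinase, at -0.23, Plk1, the polo kinase of mitosis, at -0.20 and Aurka, a kinase of spindle poles, at -0.17, with adjusted p-values of 0.0199, 0.0263, 0.0366 and 0.0379. Birc5, the survivin subunit of the passenger complex, differed by 0.01 (95% interval -0.10 to 0.12), unlike its partner Aurkb by value, although the difference between them was not tested. Ube2c, the ubiquitin-conjugating enzyme of the APC, was 12.10, 12.09 and 12.08 before and 11.95, 11.96 and 12.04 after trypsin (difference -0.11, adjusted p = 0.172). Cdc20, which activates the APC, was at -0.12 (adjusted p = 0.115).

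In the spindle, kinetochore and chromosome group 5 of 10 genes were lower and all 10 had a negative sign. Tpx2, which targets and activates Aurora A on the spindle, had the smallest adjusted p of the 39 in this comparison. It read 9.87, 9.86 and 9.93 before trypsin and 9.57, 9.66 and 9.60 after it, a difference of -0.28 (SE 0.04, adjusted p = 0.00425). Prc1, which bundles microtubules of the spindle midzone, had the most negative difference at -0.32 (SE 0.07, adjusted p = 0.0174), or 1.24-fold. Cenpa, the histone of centromeres, was at -0.19, Kif11, the kinesin that separates spindle poles, at -0.17 and Kif23, a kinesin of the midzone, at -0.14. Their adjusted p-values were 0.0176, 0.0479 and 0.0344. Top2a, the topoisomerase that untangles sister chromatids, was 10.85, 10.66 and 10.84 before and 10.74, 10.69 and 10.57 after trypsin, with overlap (difference -0.12, adjusted p = 0.234). A second, dim Top2a row had a difference of 0.85, and averaging both rows gave 0.37 for this gene. Nusap1, Cenpe, Kif20a and Cenpf, further spindle and kinetochore genes, ranged from -0.17 to -0.01 and did not pass.

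**Figure D2:**
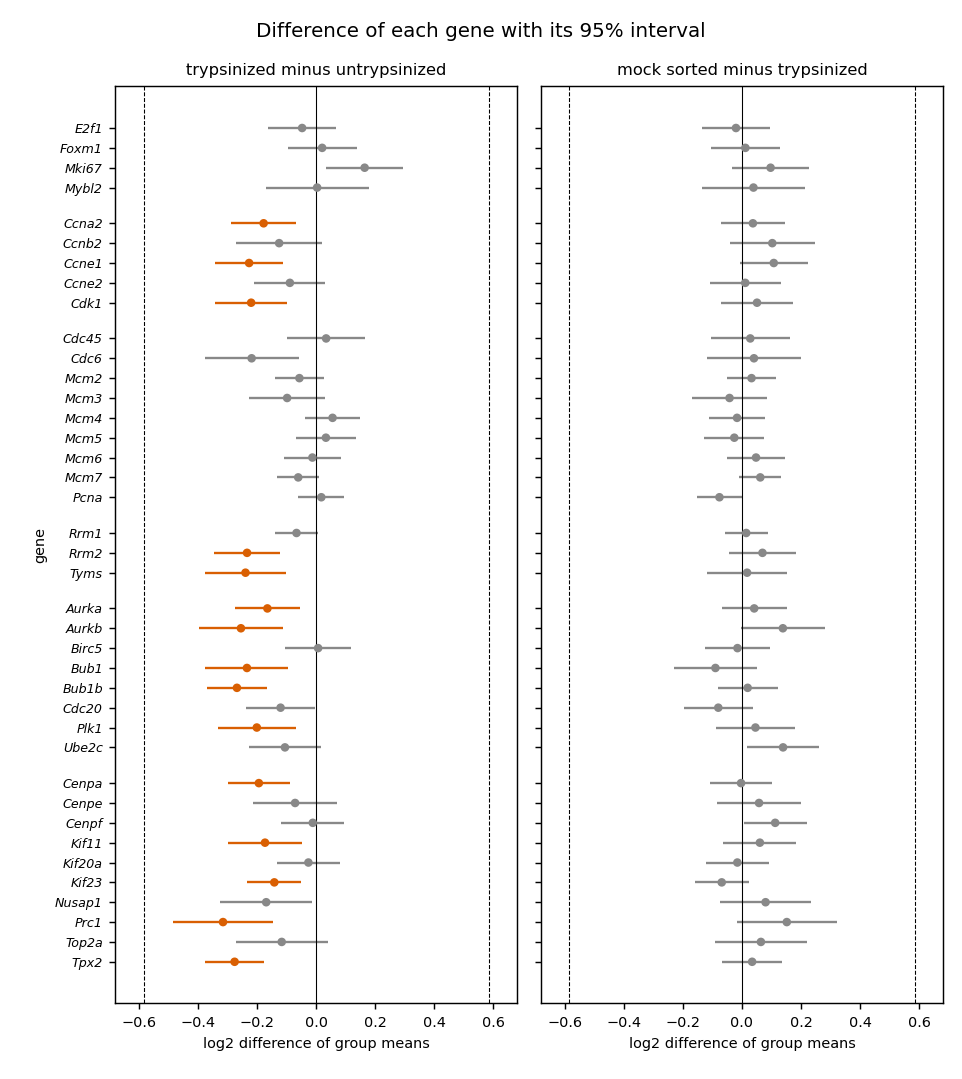
Log2 differences of group means (points) with 95% intervals (lines) for the 39 genes, trypsinized minus untrypsinized at left and mock sorted minus trypsinized at right, with dashed lines at a 1.5-fold change. Orange marks the 15 genes that reach an adjusted p of 0.05 at left, with 0 at right, and no interval reaches a dashed line.

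Split by phase, 12 of 24 G2 and M phase genes and 3 of 15 S phase genes were lower after trypsin. Of all genes 11.5% were lower. The medians of the 2 phases were -0.15 and -0.06, against 0.04 over all genes. The median level of the G2 and M phase genes was 10.12, 10.11 and 10.20 in untrypsinized arrays and 9.89, 10.02 and 10.01 in trypsinized arrays, without overlap. That of the S phase genes was 10.68, 10.69 and 10.69 before and 10.64, 10.58 and 10.68 after. The difference between the phases was not tested.

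These counts rested on all 9 arrays. The 15 lower genes became 3 without trypsinized replicate 1, 5 without untrypsinized replicate 3, 6 without untrypsinized replicate 1 and 8 without trypsinized replicate 2. With all arrays the share was 38.5% of the 39 and 11.5% of all genes. Without trypsinized replicate 1 the share was 7.7% of the 39 and 7.2% of all genes, so it then lay near the background. It was 12.8% against 8.5% without untrypsinized replicate 3, 15.4% against 8.2% without untrypsinized replicate 1 and 20.5% against 9.9% without trypsinized replicate 2. Tpx2, Bub1b and Rrm2 passed whichever single array was left out, and each of the other 12 was lost without at least 1 array. Ccne1 was lost without trypsinized replicate 1 (adjusted p = 0.0508), and Prc1 without that array (0.0625) or untrypsinized replicate 3 (0.0514). Ccna2 was lost without untrypsinized replicate 1 or 3 or trypsinized replicate 1 or 2, with adjusted p-values of 0.0661 to 0.0932. Cdc6 passed without trypsinized replicate 3 (adjusted p = 0.0140) and Mki67, as higher, without trypsinized replicate 2 (0.0402). The median difference moved less, from -0.14 to -0.10 when each array was left out in turn, with 30 to 32 genes negative. When every array was given the same median intensity, which moved the median of all genes from 0.04 to -0.09, 28 genes were lower, as were 28.4% of all genes, and the median was -0.25.

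Markers of other cell types also differed between these arrays. Of 10 endothelial markers 3 were called lower after trypsin, and their summed intensity was 29687 to 34224 before and 23057 to 23469 after it. The summed intensity of 12 lymphocyte markers was 4268 to 4626 before trypsin, 7464 and 7507 in trypsinized replicates 3 and 2, and 18535 in trypsinized replicate 1. Mock sorted replicate 1 was at 16109. Of 5 Schwann cell markers 3 were called lower after trypsin, with a median of -0.88 and sums of 11421 to 12109 before and 8819 to 9159 after. Adipocyte markers were called lower in 2 of 7 cases, with sums of 6553 to 8079 before and 4755 to 5371 after. Fibroblast markers were negative in 8 of 8 cases, with a median of -0.27, and 3 were lower with no minimum fold. At that level 3 of 10 basal markers were lower, 5 of 13 luminal markers were higher and 1 of 10 macrophage markers was lower. Of all genes 11.5% were lower and 13.9% higher at that level. Germinal centre B cell and thymocyte lists, whose cells divide fast, had 0 of 4 and 0 of 5 measured markers called in any comparison. With no minimum fold Bcl6, of the germinal centre list, was higher after trypsin by 0.19 (adjusted p = 0.0107). After both steps Bcl6 was higher by 0.26 (adjusted p = 0.00151). The other 3 germinal centre markers and the 5 thymocyte markers did not pass. Only 2 of the 4 germinal centre markers had mean levels above 8.20. Of the 5 thymocyte markers Rag1, Rag2 and Dntt had group means of 6.25 to 7.64, below the 8.20 of the olfactory receptor percentile, while Ptcra and Cd1d1 had means of 8.48 to 8.88, above it. Without trypsinized replicate 1 and mock sorted replicate 1 together, 6 of the 39 genes were lower after trypsin. That was 15.4%, against 7.2% of all genes, and the median difference of the 39 was -0.10. The part of RNA from any of these cell types in the differences of the 39 genes was not tested.

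**Figure D3:**
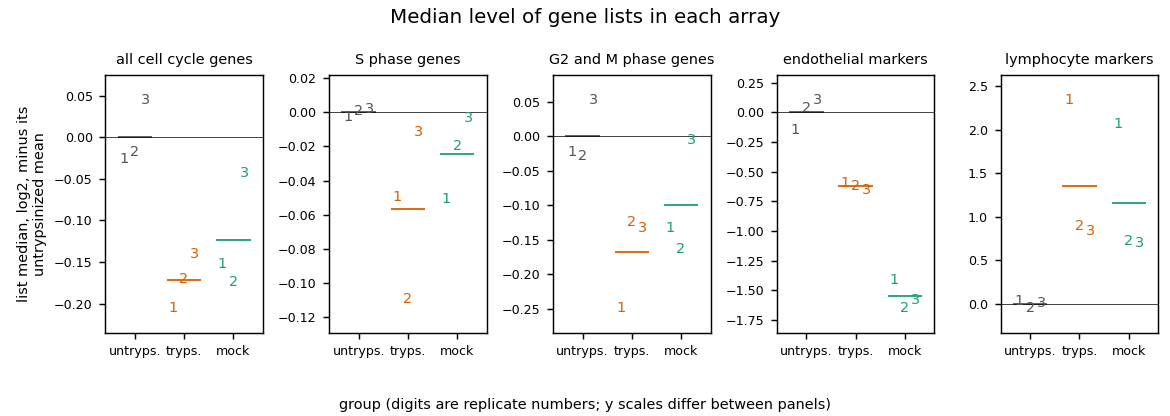
Median log2 level of a gene list in each array, minus its mean in the untrypsinized group; digits are replicate numbers, bars are group means over 3 arrays, and each panel has its own vertical scale. The median of the 39 genes, 10.09 to 10.34 before the subtraction, is lower in the trypsinized than in the untrypsinized arrays, whereas the endothelial markers fall at both steps and the lymphocyte markers are highest in replicate 1 of the trypsinized and mock sorted groups.

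The sorter step was isolated by setting mock sorted against trypsinized cells. Of all genes 1.19% were called, and 0 of the 39. At an adjusted limma p of 0.05 with no minimum fold the count was also 0, against 4.20% lower and 0.466% higher of all genes. An unadjusted p under 0.05 was reached by 2 higher genes, against 5.78% of all genes, and by 0 lower, against 11.4%. These were Ube2c at 0.14 (SE 0.05, adjusted p = 0.221) and Cenpf, a kinetochore protein, at 0.11 (adjusted p = 0.264). The groups did not overlap in 4 genes that were higher (Ccne1, Mcm7, Cenpf and Prc1) and 1, Pcna, that was lower, against 9.74% and 14.3% of all genes. Pcna was 12.92, 12.90 and 12.88 in mock sorted arrays, a difference of -0.08 (95% interval -0.15 to 0.00, adjusted p = 0.298). The sign was negative in 11 of the 39 and in 49.0% of all genes, and the median was 0.04 against 0.00 over all genes. All 39 intervals lay between -0.23 and 0.32, while all 10 endothelial markers were called lower with a median of -1.08 in the same comparison.

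Within the mock sorted group 1 array stood out. Replicate 3 held the highest value of the 3 arrays for 34 of the 39 genes, whereas it was highest for 31.8% of all genes. Prc1 was 10.05, 10.00 and 10.25 in mock sorted replicates 1 to 3, and Ube2c was 12.02, 12.13 and 12.22. In the trypsinized group replicate 1 held the lowest value for 23 genes, and in the untrypsinized group replicate 2 for 21. Over all genes the share of lowest values was not counted, so neither count can be read as particular to the 39. Without mock sorted replicate 3 the median difference from trypsinized arrays was 0.00, and 17 genes were negative in place of 11.

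**Figure D4:**
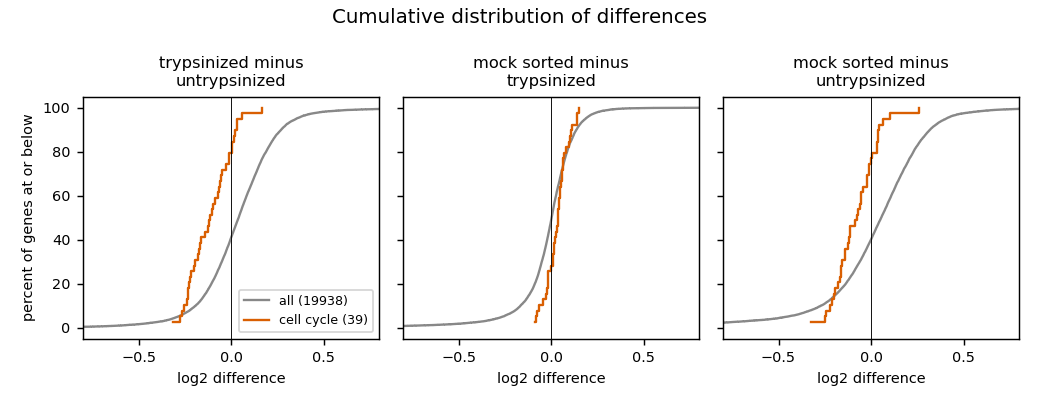
Cumulative percent of genes (vertical axis) at or below a log2 difference (horizontal axis, shown from -0.8 to 0.8) for the 39 genes and for all 19938 genes. Except at its lowest values, the curve of the 39 lies left of that of all genes in both comparisons with untrypsinized cells, with medians of -0.12 and -0.08 against 0.04 and 0.05, and between mock sorted and trypsinized cells it is steeper, with 0.04 against 0.00.

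The comparison of mock sorted with untrypsinized cells spans both steps and shares its untrypsinized arrays with the first comparison and its mock sorted arrays with the second, so it is not separate evidence. Of all genes 4.47% were called, and 0 of the 39. With no minimum fold 10 genes were lower and 1, Mki67, was higher, against 18.0% lower and 21.0% higher of all genes. The groups did not overlap in 15 lower genes and 1 higher, against 23.4% and 28.7%. The sign was negative in 29 of the 39 and in 40.1% of all genes, and the median was -0.08 against 0.05 over all genes. An unadjusted p under 0.05 was reached by 15 lower genes and 1 higher, against 21.3% and 27.9%, and either direction at an adjusted p of 0.05 by 11 genes, against 39.0%. Mki67 was higher by 0.26 (SE 0.06, adjusted p = 0.00818), or 1.20-fold, and by 0.11 (adjusted p = 0.121) with equal array medians. Bub1 was lower at -0.32 (SE 0.06, adjusted p = 0.00420), Bub1b at -0.25 (adjusted p = 0.00323), which was 9.28, 9.33 and 9.40 in mock sorted arrays, and Tpx2 at -0.24 (adjusted p = 0.00348), at 9.62, 9.60 and 9.71. Those 3 arrays of each gene lay below all 3 untrypsinized arrays. Kif23, Tyms, Cdc20, Cenpa, Cdk1, Rrm2 and Ccna2 were the other lower genes, from -0.22 to -0.14. Rrm2 was 11.35, 11.37 and 11.45 and Ccna2 was 11.58, 11.53 and 11.65 in mock sorted arrays. Ccne1, at 10.09, 10.04 and 10.20, did not pass (-0.12, adjusted p = 0.0925). Cdc6 was 8.80, 8.75 and 8.86 (-0.18, adjusted p = 0.0727), Rrm1 11.48, 11.48 and 11.51, and Top2a 10.74, 10.66 and 10.79. The 10 lower genes, 25.6% of the 39, became 5 without mock sorted replicate 2, which is 12.8% against 14.6% of all genes, and 6 without untrypsinized replicate 1, which is 15.4% against 15.2%. In both cases the share was no longer clear of the background. It lay below the background under quantile normalization, at 20.5% against 22.7% over all rows and 12.8% against 16.4% over the tested genes. Bub1, Bub1b, Kif23, Cenpa and Tpx2 passed whichever single array was left out. Without mock sorted replicate 3 Ccne1 and Prc1 passed too (adjusted p = 0.0381 and 0.0241).

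Asked in 1 test, the moderated F test found 14 of 39 genes different among the 3 groups at an adjusted p no higher than 0.05, against 33.2% of all genes, so the share, 35.9%, was close to the background. By role these were 3 of 5 cyclin and Cdk1 genes, 2 of 3 nucleotide enzymes, 4 of 8 kinase and checkpoint genes, 4 of 10 spindle genes, Mki67 alone of 4 growth state genes and 0 of 9 licensing and fork genes. The count was 6 without untrypsinized replicate 1 or 3, 9 without trypsinized replicate 1 or 2, and 26 with equal array medians. For the F test the share of all genes was counted only in the main fit, so these counts have no background beside them.

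Further proliferation genes outside the 39 gave 59 measured genes of 60 listed. None was called in any comparison. After trypsin 13 were lower and 2 higher with no minimum fold, against 11.5% lower and 13.9% higher of all genes. The median was -0.08, against 0.04 over all genes. Between mock sorted and trypsinized cells 0 differed, against 4.67% of all genes. Nuf2 and Spc25, subunits of the Ndc80 kinetochore complex, were at -0.36 each (adjusted p = 0.00115 and 0.00464). Gins4, a subunit of the GINS complex at the fork, was at -0.22 (adjusted p = 0.00948), and Pole, the catalytic subunit of the leading strand polymerase, had the opposite sign at 0.29 (adjusted p = 0.00572).

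The genes upstream of this programme were described by 2 lists. As background for their counts, 11.5% of all genes were lower and 13.9% higher after trypsin with no minimum fold. Of 10 G1 cyclins and kinases 0 were called, and 2 were lower after trypsin with no minimum fold, Ccnd2, a cyclin D, at -0.21 (adjusted p = 0.0162) and Ccnh, the cyclin of the Cdk-activating kinase, at -0.28 (adjusted p = 0.00730). Mnat1, which assembles that kinase, and Cdk4, the partner of D cyclins, were at -0.19 and -0.09 and did not pass. Of 17 measured inhibitors and growth arrest genes, out of 19 listed, 0 were called, and 4 were higher and 1 lower after trypsin. Cdkn1a and Trp53 were listed but had no single-gene row, so these counts do not cover them. Wee1, a kinase that holds back Cdk1, was higher by 0.28 (adjusted p = 0.00534), and Cdkn2b, the p15 inhibitor, by 0.20 (adjusted p = 0.0252). Cdkn2c, the p18 inhibitor, was at -0.38 (adjusted p = 0.00137). Gadd45b, a stress-induced gene, was at -0.03 after trypsin and at -0.29 in mock sorted against trypsinized cells (adjusted p = 0.0313).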

How the data were processed

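The authors deposited 1 table of linear-scale intensities, 35512 rows by 9 arrays. How background, probe summary and scaling were handled is not given in the sources used here. Among tools, limma is named in the submitters' processing notes. Array medians were 345 to 408, so arrays were not set to a common median before deposit. They were 345, 366 and 375 in untrypsinized arrays and 389 to 408 in the other groups. Array scale therefore differed along with group in the comparisons with untrypsinized cells. Precision is limited by the 9 arrays.

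Rows were named through the platform annotation, which can be old: 21789 rows had 1 symbol, 1621 several and 12102 were not listed. Gene numbers updated 21698 symbols to RefSeq (GRCm38.p6), giving 19938 genes. Values were taken as log2 of intensity plus 1. A limma 3.58.1 model (R 4.3.3) had 1 mean for each group over all 9 arrays and was tested on simulated data. The threshold, 1.5-fold and 0.05, is that of the submitters' design text, read as an adjusted p. Values in every array are given for members called and, in each role, for those with the smallest moderated F p-value or the highest mean, and from other lists up to 4 genes with the smallest F p-value are named. The members and lists were chosen with earlier results of these data known.

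The 3 groups share replicate numbers. For arrays numbered alike in the trypsinized and mock sorted groups, deviations from the group mean correlated at 0.53, 0.29 and 0.29. Those arrays were therefore read as possible pairs, from the values and not from the labels. The main fit did not pair them, and its standard errors and p-values treated all arrays as independent. The replicate number entered only as a block in an alternative fit. For untrypsinized arrays at least 1 same-number correlation was below 0.1. Alternatives covered scaling, pseudocount, filters, rows, variance model, weights, block, threshold and leaving out each array.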

Additional observations from a re-analysis of the deposited data

How the results depend on the processing

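No gene of the 39 was called under any of the other scalings, filters, weights, variance models or array sets tried that kept both parts of the threshold. Dropping the minimum fold gave 15 and 11 of the 39 after trypsin and after both steps, and 5055, 931 and 7777 of all genes for trypsin, sorter and both. Counts without a minimum fold, and the arrays left out together, were added after seeing the data. A common median over all rows gave 28 and 27 lower genes after trypsin and after both steps, 0 higher genes after both, medians of -0.25 and -0.23, and 26 by the F test, with 28.4% and 34.1% of all genes lower. It also turned Mcm7 after both steps to -0.15 (adjusted p = 0.0289). Averaging rows turned Top2a to 0.37 after trypsin and 0.35 after both steps, with 1 and 2 genes higher. Quantile normalization over the tested genes gave 1 higher gene after trypsin and 5 lower after both (12.8%, against 16.4% of all genes), and a robust variance trend 1 higher after trypsin. Leaving out each array gave 3 to 15 lower and 0 to 1 higher genes after trypsin, 5 to 12 lower after both, and 6 to 13 by the F test. Of all genes 7.1% to 10.9% were then lower and 7.8% to 13.6% higher after trypsin, and 14.5% to 17.5% were lower after both. Without trypsinized and mock sorted replicate 1 together there were 6 lower after trypsin, 15.4% against 7.2% of all genes. The F test then found 6. The F test counts under these settings have no share of all genes beside them, which was counted only in the main fit. With the replicate number as a block, 15, 0 and 11 of the 39 were lower after trypsin, sorter and both steps. Of all genes 10.9%, 3.9% and 17.7% were lower in that fit. The block moved none of the counts of the 39 by over 1.5 times. The cause of these shifts was not tested. Relative to the median of all genes, the median of the 39 lay between -0.18 and -0.12 after trypsin over the settings fitted to all groups, and between -0.18 and -0.06 after both steps, where quantile normalization over all rows gave the value nearest to 0.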
